A study of Mus musculus with 9 samples.

Results

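Collagen genes were followed through RNA sequencing of cells sorted from mouse skin. The family was taken as every gene in the table whose symbol has the form Col, a type number, the letter a and a chain number, and 44 of the 23361 genes in the table met this rule. The samples are labelled as melanocyte stem cells collected on a cell sorter, that is, the reserve from which the pigment cells of the hair follicle are renewed. The 9 libraries formed 3 groups of 3, labelled UVB (the medium-wave ultraviolet band of sunlight), Active and Quiescent. All groups shared the tissue, the age of 10 weeks after birth and a genotype labelled TBPT, which the labels do not spell out. A single treatment label names chemical depilation or ultraviolet irradiation for every sample alike, so the labels do not say which group was depilated, and no sorting marker is named there.

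Collagens are extracellular proteins in which 3 chains, encoded by the same gene or by different ones, wind into a triple helix. Fibrillar collagens form the cables that give the dermis its strength, the network collagen of type IV is the scaffold of basement membranes, and beaded filament collagens lie between cells and the larger fibrils. Collagens of the FACIT class bind to the surface of fibrils, anchoring fibrils tie the epidermis to the dermis, and transmembrane collagens stay on the cell that makes them. Dermal fibroblasts are the main source of types I and III in skin, whereas many cell types that rest on a basement membrane make type IV.

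The libraries held 21045070 to 35131778 fragments in genes. Levels are given as CPM, fragments per 1000000 of the scaled library total, and, where genes are compared with each other, as the authors' FPKM, which also divides by transcript length. Of the 44 genes, 42 had enough fragments to be tested, and Col19a1 and Col22a1 did not. The labels do not say that the libraries came from separate animals, so p-values measure the spread between these libraries alone. Of 10 melanocyte markers, the summed FPKM was 349 to 439 in UVB, 3609 to 5776 in Active and 26.0 to 64.3 in Quiescent, where Slc24a5 was at 0 in 1 library. Of these markers, 9 fell in UVB against Active, 8 rose in UVB against Quiescent and all 10 rose in Active against Quiescent. The lineage on the label was thus weakly marked in the Quiescent libraries. Xist ranged from 23353 to 30356 fragments over the UVB libraries and from 4 to 12 over the Active and Quiescent ones, while 4 Y-linked genes together had 0 to 2 fragments in UVB and 4106 to 5591 elsewhere, so UVB also differed from the rest in its sex-linked transcripts.

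Collagen transcripts filled a far larger part of the Quiescent libraries than of the others, and most of that excess came from types I and III. All 44 genes together took 5.87%, 5.03% and 5.90% of the fragments in the UVB libraries, 1.76%, 2.12% and 2.53% in Active, and 27.5%, 24.3% and 29.0% in Quiescent. No library of 1 group reached the range of another. The exact two-sided permutation test gave p = 0.1 for each pair of groups, which is the smallest p that 3 against 3 libraries allow (0.109 after Benjamini-Hochberg adjustment over 12 such tests). Without Col1a1, Col1a2 and Col3a1 the other 41 genes took 2.76%, 2.58% and 2.41% in UVB, 1.21%, 1.42% and 1.88% in Active, and 1.22%, 1.11% and 1.27% in Quiescent. On this measure UVB stood above both other groups (exact permutation p = 0.1 each), and Active overlapped with Quiescent (exact permutation p = 0.3). In bulk samples such as these, fewer cells of a type and less RNA per cell cannot be told apart.

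**Figure D1:**
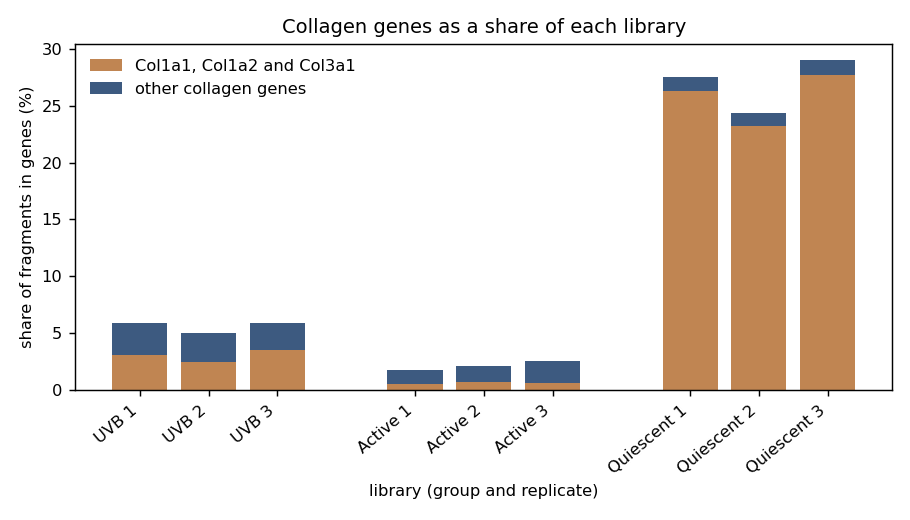
Share of the fragments in genes (%) that lay in collagen genes in each of the 9 libraries, with Col1a1, Col1a2 and Col3a1 in brown and the other 41 collagen genes in blue. The Quiescent bars reach 24.3% to 29.0% and are almost wholly brown, the UVB bars reach 5.03% to 5.90%, and the Active bars reach 1.76% to 2.53%.

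The make-up of the collagen transcripts also differed between the groups. Per length, as a share of the summed collagen FPKM, fibrillar collagens made up 57.8% to 66.3% in UVB, 35.5% to 42.3% in Active and 97.3% to 97.7% in Quiescent. Basement membrane collagens made up 8.06% to 10.5% in UVB, 17.5% to 21.9% in Active and 0.195% to 0.267% in Quiescent. Beaded filament collagens held 18.0% to 19.5% in UVB, 17.3% to 18.1% in Active and 1.38% to 1.45% in Quiescent. Multiplexins, the class of Col15a1 and Col18a1, held 4.44% to 8.23% in UVB, 13.4% to 13.7% in Active and 0.355% to 0.398% in Quiescent, and the FACIT class held 2.59% to 3.90%, 8.22% to 10.8% and 0.342% to 0.491% in the same groups. Shares of one total depend on each other, so a low share in Quiescent is not by itself a low level. In the beaded filament class, the mean FPKM of Col6a1, Col6a2 and Col6a3 was 314, 195 and 36.8 in Active. It was 440, 444 and 168 in Quiescent, whereas that of Col28a1 was 20.7 in Active and 0.580 in Quiescent. Col3a1 had the highest mean collagen FPKM in UVB (2175) and in Active (683). In Quiescent, Col1a2 and Col1a1 came first with 25698 and 25197 FPKM, close together, and Col3a1 followed with 20484 FPKM. The next gene in Active was Col4a1 with 348 FPKM, a basement membrane chain, whereas in UVB it was Col1a2 with 1353 FPKM.

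In UVB against Active, 18 of the 42 tested collagen genes rose and 1 fell, at an adjusted p under 0.05 in the quasi-likelihood test of edgeR, adjusted by Benjamini and Hochberg's method across every gene tested. Among all 15078 genes tested, 14.8% rose and 9.19% fell (24.0% in either direction). Without Active replicate 2, 10 collagen genes rose, and without UVB replicate 1 or Active replicate 1 none fell. The median log2 fold change was 0.93 over the collagen genes and 0.01 over all genes. In UVB against Quiescent, 18 rose and 12 fell, against 25.8% and 23.2% of all genes (49.0% in either direction), with medians of 0.64 and 0.02. In Active against Quiescent, 13 rose and 20 fell, against 29.1% and 29.2% of all genes (58.3% in either direction), with medians of -0.97 over the collagen genes and 0.01 over all genes. The 3 comparisons share libraries, so their calls are not independent of one another.

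The 2 comparisons with Quiescent depended on how libraries were scaled. With the library size alone, the median of all genes moved to 0.74 in UVB against Quiescent and 0.76 in Active against Quiescent, and with library sizes that leave out the collagen genes it moved to 0.37 and 0.33. With the library size alone, 24 collagen genes rose and 10 fell in UVB against Quiescent, and 14 rose and 14 fell in Active against Quiescent, while 8746 and 8651 of all genes rose and 1247 and 2208 fell. Folds below are relative to TMM scaling, under which the median of all genes was 0.01 to 0.02.

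**Figure D2:**
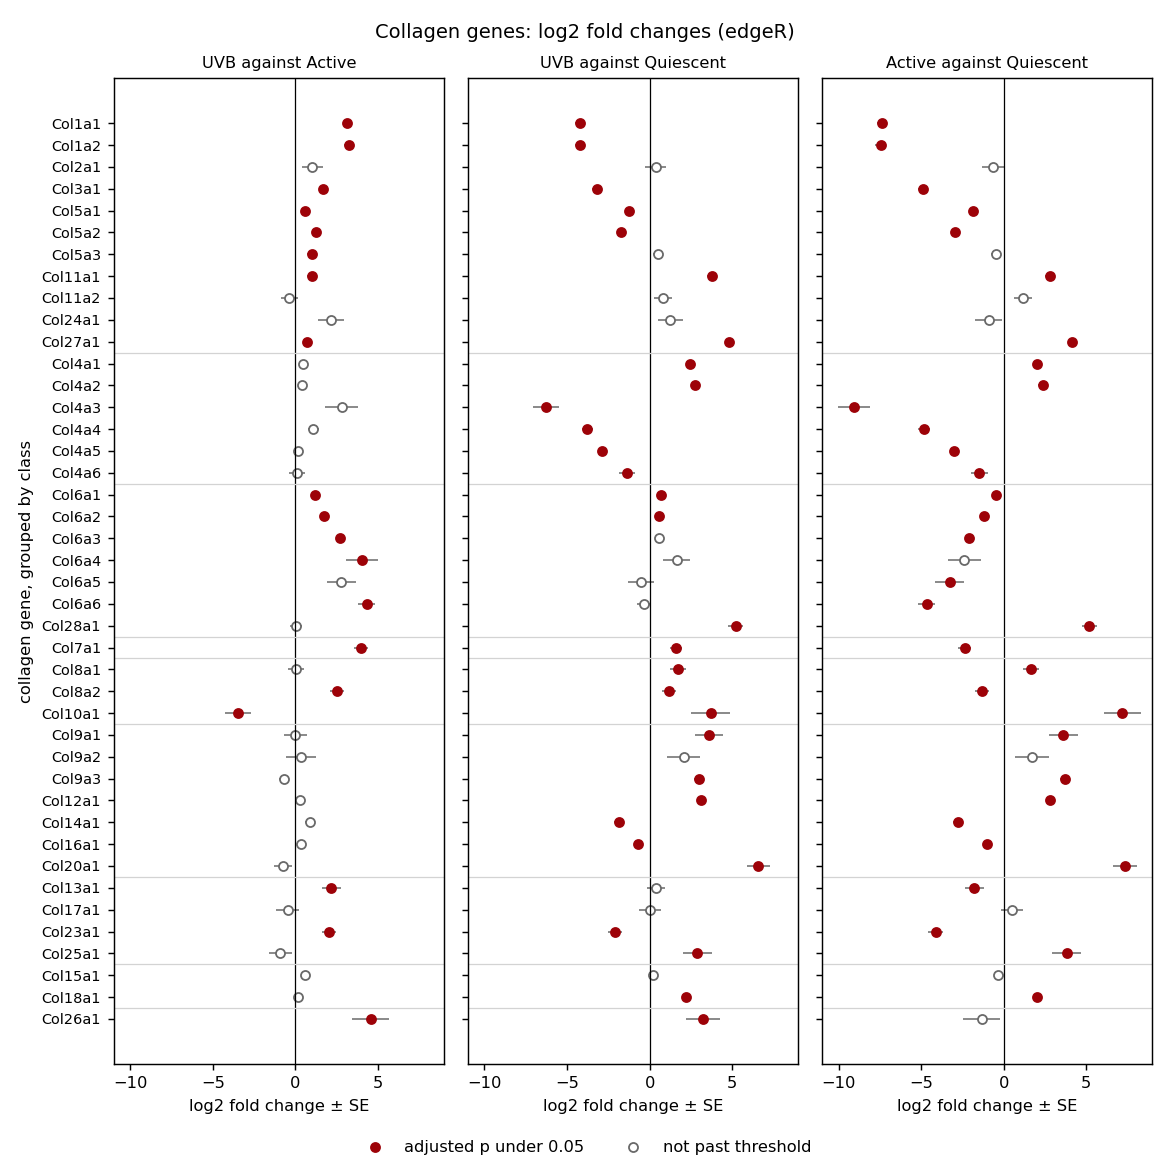
Log2 fold change with its standard error for the 42 tested collagen genes, grouped by class from top to bottom, in UVB against Active (left), UVB against Quiescent (middle) and Active against Quiescent (right). Filled points passed an adjusted p of 0.05. In the left panel 18 filled points lie right of 0 and 1 lies left, and in the right panel 20 filled points lie left of 0 and 13 lie right, with genes of 1 class on both sides.

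Markers of other cell types moved between the same groups, and the shares of all genes given above stand beside their counts. Of 12 fibroblast markers, 11 rose and none fell in UVB against Active, 11 fell in UVB against Quiescent, and all 12 fell in Active against Quiescent. Their summed FPKM was 1154 to 3109 in UVB, 280 to 296 in Active and 15163 to 21071 in Quiescent, with none at 0. The 10 endothelial markers summed to 91.4 to 133 FPKM in UVB, 19.5 to 24.2 in Active and 167 to 265 in Quiescent, and the 9 smooth muscle and pericyte markers to 169 to 221, 99.5 to 130 and 385 to 531 FPKM in the same groups. The 9 Schwann cell markers summed to 588 to 698 FPKM in UVB, 598 to 824 in Active and 383 to 393 in Quiescent, with none at 0. The 10 keratinocyte markers summed to 152 to 360 FPKM in UVB, 420 to 648 in Active and 65.4 to 1075 in Quiescent, and the 8 blood cell markers to 345 to 749, 25.2 to 63.9 and 64.2 to 965 FPKM, with Cd3e at 0 in 2 Quiescent libraries. The 6 cartilage markers were low, at 2.41 to 6.81 FPKM in UVB, 4.67 to 8.10 in Active and 1.06 to 2.47 in Quiescent, and Matn1, Matn3 or Comp was at 0 in 6 of the 9 libraries. The 6 adipocyte markers summed to 38.6 to 245 FPKM in UVB, 25.7 to 32.3 in Active and 196 to 265 in Quiescent, and between 1 and 5 of them were at 0 in each library. In the order UVB against Active, UVB against Quiescent and Active against Quiescent, the genes that rose and fell numbered 10 and 0, 0 and 7, and 0 and 10 among endothelial markers, 5 and 0, 1 and 7, and 1 and 8 among smooth muscle and pericyte markers, and 0 and 1, 4 and 1, and 4 and 2 among Schwann cell markers. They numbered 7 and 0, 4 and 0, and 1 and 3 among blood cell markers, and 0 and 1, 1 and 1, and 2 and 0 among keratinocyte markers. Of 4 tested cartilage markers they numbered 0 and 0, 1 and 0, and 2 and 1, and the 1 tested adipocyte marker fell in Active against Quiescent alone. The part of these cell types in the collagen levels was not tested.

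**Figure D3:**
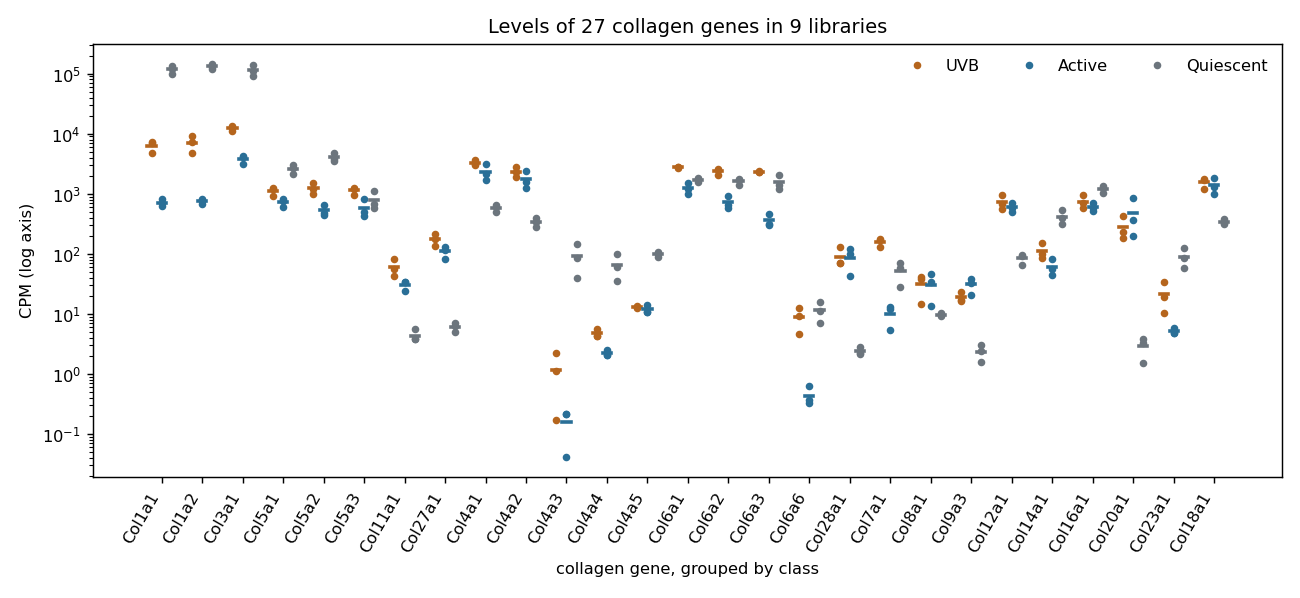
Level in CPM (log axis) of 27 collagen genes that passed the test in at least 1 comparison and reached a mean of 10 CPM in a group, with 1 point for each of 3 libraries of UVB, Active and Quiescent and a bar at the group mean. Col1a1, Col1a2 and Col3a1 stand highest in Quiescent, while Col4a1, Col4a2, Col12a1, Col18a1, Col20a1, Col27a1 and Col28a1 are lowest there.

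Type I collagen, the main fibril of skin and bone, is built from the products of Col1a1 and Col1a2, and type III, its partner in skin and vessel walls, from that of Col3a1. All 3 genes were lowest in Active, intermediate in UVB and highest in Quiescent. Col1a1 had 7153, 4816 and 6991 CPM in UVB, 635, 813 and 693 CPM in Active, and 121071, 98371 and 133629.7 CPM in Quiescent. Col1a2 had 7323, 4849 and 9067 CPM in UVB, 677, 751 and 816 CPM in Active, and 129953, 119363 and 146516 CPM in Quiescent. Col3a1 had 12277, 11002 and 13654 CPM in UVB, 3165, 4239 and 4071 CPM in Active, and 109637, 92979 and 139673 CPM in Quiescent. The 3 groups did not overlap for any of these genes. In Active against Quiescent, Col1a1 was 165-fold lower, with a log2 fold change, ± its SE, of -7.37 ± 0.32 (adjusted p = 2.0e-06), Col1a2 was 176-fold lower at -7.46 ± 0.35 (adjusted p = 2.1e-06), and Col3a1 was 29.8-fold lower at -4.90 ± 0.28 (adjusted p = 5.1e-06). In UVB against Quiescent the log2 fold changes were -4.22 ± 0.28 (adjusted p = 1.5e-05) for Col1a1, -4.22 ± 0.30 (adjusted p = 2.2e-05) for Col1a2 and -3.21 ± 0.26 (adjusted p = 4.0e-05) for Col3a1. In UVB against Active they were 3.15 ± 0.27 (adjusted p = 4.6e-04) for Col1a1, 3.24 ± 0.29 (adjusted p = 5.6e-04) for Col1a2 and 1.69 ± 0.25 (adjusted p = 0.003) for Col3a1. The fibroblast markers given above followed the same order of groups, and their part was not tested.

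The promoter windows of Col1a2 and Col3a1, the genes that lead the type I and type III changes and have a RefSeq window, are shown for GRCm38.p6. Each window runs 5′ to 3′ on the gene's strand from 250 bases before to 50 bases after the annotated start, and capitals mark the CCAAT box, the GC box (letters GGGCGG) and the TATA box (letters TATAAA), each on either strand. Col1a2 lies at chr6:4505368-4505667 on the plus strand and Col3a1 at chr1:45311288-45311587 on the plus strand.
Col1a2: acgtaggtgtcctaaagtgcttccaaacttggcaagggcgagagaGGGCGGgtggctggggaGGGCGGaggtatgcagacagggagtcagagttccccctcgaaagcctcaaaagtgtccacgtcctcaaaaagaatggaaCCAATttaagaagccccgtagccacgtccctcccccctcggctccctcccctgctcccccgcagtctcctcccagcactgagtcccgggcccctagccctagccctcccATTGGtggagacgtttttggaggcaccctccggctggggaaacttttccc
Col3a1: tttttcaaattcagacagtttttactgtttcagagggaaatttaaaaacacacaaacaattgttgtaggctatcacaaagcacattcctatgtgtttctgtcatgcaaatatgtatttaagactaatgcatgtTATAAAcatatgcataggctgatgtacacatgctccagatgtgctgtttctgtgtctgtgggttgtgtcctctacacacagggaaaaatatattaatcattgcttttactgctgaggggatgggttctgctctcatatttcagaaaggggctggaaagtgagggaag
The Col1a2 window held 2 CCAAT boxes and 2 GC boxes and was 61.0% G or C. The Col3a1 window held 1 TATA box and neither of the others and was 37.7% G or C. Both genes fell and rose in the same comparisons, and any part of these letters in that was not tested.

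The ratio of the type I chains to each other differed less than their ratio to type III. The FPKM ratio of Col1a1 to Col1a2 averaged 1.004 ± 0.136 in UVB, 1.05 ± 0.129 in Active and 0.977 ± 0.0629 in Quiescent (SD, n = 3 libraries each), and the groups overlapped. The smallest exact permutation p among its 3 comparisons was 0.4. The ratio of Col3a1 to Col1a1 averaged 1.66 ± 0.239 in UVB, 4.49 ± 0.387 in Active and 0.809 ± 0.0604 in Quiescent, with no overlap between any 2 groups (exact permutation p = 0.1 each, the smallest possible). Over the 10 chain pairs and 30 tests made, an exact p of 0.1 became 0.176 after Benjamini-Hochberg adjustment. These ratios are taken within a library and do not depend on scaling between libraries.

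**Figure D4:**
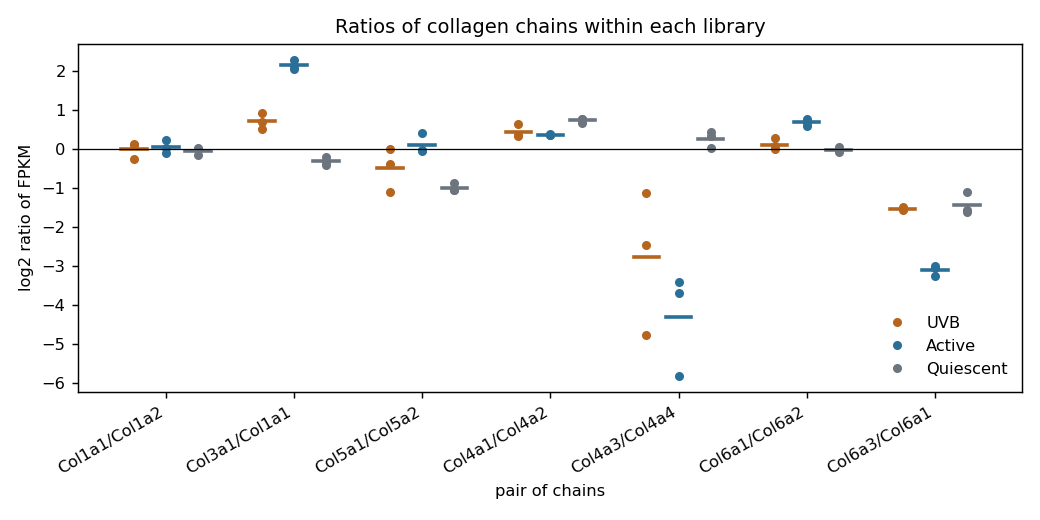
Log2 ratio of the FPKM of 2 collagen chains within each library for 7 chain pairs, with 1 point per library of UVB, Active and Quiescent and a bar at the group mean. Col1a1/Col1a2 stays near 0 in all groups, Col3a1/Col1a1 separates all 3 groups, and Col6a3/Col6a1 is lowest in Active.

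Type V collagen, whose chains Col5a1, Col5a2 and Col5a3 help to start fibrils and limit their width, was divided. Col5a1 and Col5a2 followed the direction of type I with smaller folds, and Col5a3 passed no test against Quiescent. Col5a1 had 1186, 1254 and 912 CPM in UVB, 611, 772 and 816 CPM in Active, and 2696, 2156 and 3032 CPM in Quiescent. Col5a2 had 1207, 979 and 1511 CPM in UVB, 487, 449.9 and 656 CPM in Active, and 3837, 3482 and 4858 CPM in Quiescent. For both chains the 3 groups stood apart, with Quiescent highest and Active lowest. In Active against Quiescent the log2 fold changes were -2.93 ± 0.24 (adjusted p = 1.9e-05) for Col5a2 and -1.84 ± 0.20 (adjusted p = 7.4e-05) for Col5a1. In UVB against Quiescent the log2 fold changes were -1.72 ± 0.23 (adjusted p = 4.0e-04) for Col5a2 and -1.23 ± 0.19 (adjusted p = 9.7e-04) for Col5a1, and in UVB against Active 1.21 ± 0.22 (adjusted p = 0.0074) and 0.61 ± 0.19 (adjusted p = 0.049). Col5a3 had 1212, 1233 and 966 CPM in UVB, 427, 495 and 809 CPM in Active, and 683, 589.7 and 1125 CPM in Quiescent. It rose in UVB against Active by 0.98 ± 0.30 (adjusted p = 0.046) on the log2 scale, and its Quiescent libraries overlapped with both other groups. Its values against Quiescent were 0.51 ± 0.30 (adjusted p = 0.19) in UVB and -0.47 ± 0.30 (adjusted p = 0.21) in Active. The UVB difference was called higher with the library size alone (adjusted p = 0.0028) or library sizes without collagen genes (adjusted p = 0.025) and without Quiescent 3. The Col5a1 and Col5a3 calls in UVB against Active were not stable when single libraries were left out, which are named here by group and replicate number and were left out singly. That of Col5a1 was lost when UVB 1 or 2, Active 1, 2 or 3 or Quiescent 1 was left out (adjusted p up to 0.17), and that of Col5a3 when UVB 1, 2 or 3, Active 1 or 2 or Quiescent 1 was (up to 0.16). The Col5a1 call was also lost under RLE scaling (adjusted p = 0.056), no filter (adjusted p = 0.064) or the replicate block (adjusted p = 0.094). The FPKM ratio of Col5a2 to Col3a1 averaged 0.08304 ± 0.00909 in UVB, 0.117 ± 0.02497 in Active and 0.0299 ± 0.00124 in Quiescent, so type V transcripts were scarcest relative to type III in Quiescent (exact permutation p = 0.1 against either group).

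Col11a1 and Col27a1 ran against types I and III in the comparisons with Quiescent. Of 11 fibrillar genes in all, 8 rose and none fell in UVB against Active, and 2 rose and 5 fell in each comparison with Quiescent. Among all genes, 14.8% rose and 9.19% fell in UVB against Active. The shares were 25.8% and 23.2% in UVB against Quiescent and 29.1% and 29.2% in Active against Quiescent. Col11a1 encodes a chain of type XI, which is known from cartilage fibrils, and Col27a1 a fibrillar collagen of developing cartilage. Col11a1 had 42.1, 56.3 and 83.1 CPM in UVB, 33.8, 34.3 and 23.7 CPM in Active, and 3.79, 5.54 and 3.78 CPM in Quiescent. Col27a1 had 177, 214 and 137 CPM in UVB, 82.2, 115 and 131 CPM in Active, and 6.96, 6.37 and 5.08 CPM in Quiescent. All UVB and Active libraries stood above all Quiescent ones for both genes. Relative to Quiescent, in UVB, Col27a1 was 28.5-fold higher at a log2 fold change of 4.84 ± 0.26 (adjusted p = 5.5e-06) and Col11a1 13.9-fold higher at 3.79 ± 0.30 (adjusted p = 3.7e-05). Compared with Quiescent, in Active they were 17.8-fold and 7.03-fold higher (adjusted p = 5.9e-06 and 6.4e-05). UVB also exceeded Active, by 0.98 ± 0.27 (adjusted p = 0.03) for Col11a1 and 0.68 ± 0.21 (adjusted p = 0.049) for Col27a1 on the log2 scale. That Col27a1 call was lost under 7 of 10 other settings (adjusted p 0.028 to 0.084) and without UVB 1 or 2, Active 1, 2 or 3 or Quiescent 1 or 2 (up to 0.14), and that of Col11a1 without UVB 2 or 3 or Active 1, 2 or 3 (up to 0.093) and with the replicate block (adjusted p = 0.06). The cartilage markers given above were at most 8.10 FPKM summed, and Col2a1, the main cartilage fibril, had 0.479 to 0.607 CPM in UVB, 0.123 to 0.405 CPM in Active and 0.118 to 0.715 CPM in Quiescent and passed no test. Col11a2 and Col24a1, a further type XI chain and a fibrillar collagen of developing bone, also passed no test, at means of at most 1.95 and 1.505 CPM in a group. Other settings called Col11a2 higher against Quiescent, in Active with the library size alone (adjusted p = 0.0078), library sizes without collagen genes (adjusted p = 0.029) or limma on log2(FPKM + 0.1) (adjusted p = 0.0483) and in UVB with the library size alone (adjusted p = 0.024). Col24a1 was called higher in UVB than in Active with DESeq2 (adjusted p = 0.037). Leaving out Quiescent 3 (Col11a2) or UVB 2 (Col24a1) gave the same calls.

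Type IV collagen split into chain pairs that moved in opposite directions. Col4a1 and Col4a2, the pair found in basement membranes throughout the body, rose in UVB and Active against Quiescent, while Col4a3, Col4a4, Col4a5 and Col4a6, chains of more specialised basement membranes such as those of kidney and epithelia, fell. Col4a1 had 3658, 3008 and 3081 CPM in UVB, 1677, 2129 and 3191 CPM in Active, and 649, 609 and 507 CPM in Quiescent. Col4a2 had 2773, 2294 and 1892 CPM in UVB, 1265, 1571 and 2402 CPM in Active, and 391, 342 and 285 CPM in Quiescent. Every UVB and Active library exceeded every Quiescent library, and UVB overlapped with Active for both. For UVB against Quiescent the log2 fold changes were 2.47 ± 0.25 (adjusted p = 9.9e-05) and 2.77 ± 0.27 (adjusted p = 8.8e-05) for Col4a1 and Col4a2, and in Active against Quiescent 1.99 ± 0.24 (adjusted p = 1.5e-04) and 2.36 ± 0.27 (adjusted p = 1.0e-04). In UVB against Active neither passed the test (adjusted p = 0.17 and 0.28), and Col4a1 alone passed it without Active replicate 3 (adjusted p = 0.039). Their FPKM ratio averaged 1.38 ± 0.176 in UVB, 1.297 ± 0.0159 in Active and 1.69 ± 0.0675 in Quiescent.

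Col4a1 at chr8:11198423-11312889 and Col4a2 at chr8:11312805-11449287 lie head to head on opposite strands (GRCm38), and their windows are shown because the 2 genes moved together. Their RefSeq start sites are 21 bases apart and the 2 windows share 78 bases. The window of Col4a1 is chr8:11312777-11313076 on the minus strand and that of Col4a2 is chr8:11312555-11312854 on the plus strand, in GRCm38.p6, with capitals as before.
Col4a1: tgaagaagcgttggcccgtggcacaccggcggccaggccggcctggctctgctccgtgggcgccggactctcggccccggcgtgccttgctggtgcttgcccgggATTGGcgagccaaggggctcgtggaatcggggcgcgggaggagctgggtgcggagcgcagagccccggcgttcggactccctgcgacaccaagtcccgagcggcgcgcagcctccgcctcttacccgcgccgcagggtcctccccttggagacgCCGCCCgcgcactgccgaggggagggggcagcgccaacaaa
Col4a2: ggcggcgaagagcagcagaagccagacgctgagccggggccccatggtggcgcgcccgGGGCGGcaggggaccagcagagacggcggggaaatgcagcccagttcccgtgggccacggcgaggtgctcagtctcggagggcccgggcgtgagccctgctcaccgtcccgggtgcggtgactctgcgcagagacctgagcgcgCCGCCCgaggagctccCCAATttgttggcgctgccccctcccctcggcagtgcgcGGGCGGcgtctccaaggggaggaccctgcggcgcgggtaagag
The windows held 1 CCAAT box each, had 1 GC box (Col4a1) and 3 GC boxes (Col4a2) and no TATA box, and were 74.0% (Col4a1) and 73.7% (Col4a2) G or C. The exons of the 2 genes overlap by 22 bases, 0.295% of Col4a1 and 0.332% of Col4a2, and no source used here gives the strand setting of the counting.

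Col4a3 had 1.13, 0.171 and 2.23 CPM in UVB, 0.218, 0.218 and 0.0409 CPM in Active, and 83.99, 39.6 and 148 CPM in Quiescent. Col4a4 had 5.61, 4.21 and 4.35 CPM in UVB, 2.09, 2.54 and 2.08 CPM in Active, and 60.2, 35.1 and 97.6 CPM in Quiescent. These 2 genes are also neighbours, Col4a3 at chr1:82586921-82722059 and Col4a4 at chr1:82448419-82587034, and both were far lower in every UVB and Active library than in any Quiescent one. For Active against Quiescent, where Col4a3 had 14 fragments over the 3 Active libraries, it was 533-fold lower at a log2 fold change of -9.06 ± 0.97 (adjusted p = 7.5e-05), and Col4a4 was 28.7-fold lower at -4.84 ± 0.38 (adjusted p = 1.6e-05). Relative to Quiescent, in UVB, Col4a3 was 76.5-fold lower at -6.26 ± 0.80 (adjusted p = 3.3e-04), or 135-fold lower without UVB replicate 3, and Col4a4 was 13.6-fold lower at -3.76 ± 0.35 (adjusted p = 7.3e-05). Between UVB and Active neither passed the test, at 2.80 ± 1.02 (adjusted p = 0.076) and 1.08 ± 0.34 (adjusted p = 0.051). Col4a3 was called higher in UVB by DESeq2 (adjusted p = 0.022) and without UVB 2. Col4a4 was called so by 5 of 10 other settings (adjusted p from 0.016) and without Quiescent 2 or 3. Col4a5 had 13.8, 12.8 and 12.9 CPM in UVB, 10.7, 10.9 and 14.3 CPM in Active, and 90.2, 99.6 and 106 CPM in Quiescent. Its log2 fold changes were -2.91 ± 0.14 (adjusted p = 3.7e-06) in UVB and -3.04 ± 0.14 (adjusted p = 2.1e-06) in Active, both against Quiescent, and UVB and Active overlapped. The X-linked neighbours Col4a5 at chrX:141475370-141689236 and Col4a6 at chrX:141165403-141474095 both fell, although Col4a6 was low, at 0.924 to 3.04 CPM in UVB, 1.196 to 2.43 CPM in Active and 3.31 to 5.94 CPM in Quiescent. The Col4a6 call was lost under 5 of 10 other settings in UVB against Quiescent and 2 in Active against Quiescent, at adjusted p up to 0.26 and 0.22. It was also lost without UVB 1 or 2, Active 2 or 3 or Quiescent 1 or 2 in UVB against Quiescent and without Active 2 or 3 or Quiescent 1 or 2 in Active against Quiescent (up to 0.13 and 0.097), and its UVB fold of 2.6 became 3.99 without UVB replicate 3.

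Type VI collagen, which forms beaded microfilaments around cells, belongs to the beaded filament class. Of its 7 genes, 5 rose and none fell in UVB against Active (14.8% and 9.19% of all genes). In UVB against Quiescent 3 rose and none fell (25.8% and 23.2%), and in Active against Quiescent 1 rose and 5 fell (29.1% and 29.2%). The type VI chains Col6a1, Col6a2 and Col6a3 were lowest in Active and highest in UVB. Col6a1 had 2845, 2708 and 2798 CPM in UVB, 996, 1209 and 1507 CPM in Active, and 1756, 1556 and 1864 CPM in Quiescent. Col6a2 had 2524, 2086 and 2611 CPM in UVB, 579, 658 and 923 CPM in Active, and 1716, 1400.2 and 1761 CPM in Quiescent. Col6a3 had 2311, 2272 and 2407 CPM in UVB, 301, 319 and 465 CPM in Active, and 1406, 1196 and 2042 CPM in Quiescent. The UVB libraries lay above all others for each chain and the Active libraries below all others. In UVB against Active the log2 fold changes were 1.17 ± 0.17 (adjusted p = 0.0029) for Col6a1, 1.74 ± 0.20 (adjusted p = 0.0012) for Col6a2 and 2.69 ± 0.25 (adjusted p = 6.3e-04) for Col6a3. Compared with Quiescent, in Active they were -0.48 ± 0.17 (adjusted p = 0.036), -1.17 ± 0.20 (adjusted p = 0.001) and -2.10 ± 0.24 (adjusted p = 1.1e-04) in the same order, and with the library size alone that of Col6a1 turned to 0.27 (adjusted p = 0.12) and that of Col6a2 shrank to -0.43 (adjusted p = 0.054). For UVB against Quiescent, Col6a1 rose by 0.69 ± 0.17 (adjusted p = 0.0091) and Col6a2 by 0.57 ± 0.20 (adjusted p = 0.042) on the log2 scale, while Col6a3 was at 0.59 ± 0.23 (adjusted p = 0.063) and did not pass. The smaller of these differences depended on single libraries, with Col6a2 lost without UVB 1 or 3, Active 2 or Quiescent 1, 2 or 3 (adjusted p up to 0.12) and Col6a3 gained without Active 3 or Quiescent 3 (adjusted p from 0.013) and under 4 of 10 other settings (adjusted p from 3.6e-04). The Col6a1 call in Active against Quiescent was lost under 4 of 10 other settings and without UVB 1, Active 1 or 2 or Quiescent 1 or 3 (adjusted p up to 0.4 and 0.13).

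The chains of type VI also changed in proportion. The FPKM ratio of Col6a3 to Col6a1 averaged 0.347 ± 0.0114 in UVB, 0.117 ± 0.0103 in Active and 0.377 ± 0.0769 in Quiescent, and all Active libraries lay below all others (exact permutation p = 0.1). UVB and Quiescent overlapped (exact permutation p = 0.9). Col6a1 to Col6a2 averaged 1.09 ± 0.1104 in UVB, 1.62 ± 0.0958 in Active and 0.995 ± 0.0411 in Quiescent, again with Active apart from both. Col6a1 at chr10:76708792-76726044 and Col6a2 at chr10:76595756-76623630 lie close together on chromosome 10, and Col6a3 lies at chr1:90766860-90844001.

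Col6a4, Col6a5 and Col6a6 encode long chains that resemble that of Col6a3 and lie side by side on chromosome 9. Col6a6 had 12.6, 4.69 and 9.25 CPM in UVB, 0.623, 0.363 and 0.327 CPM in Active, and 11.4, 15.97 and 6.97 CPM in Quiescent. It was 19.7-fold higher in UVB than in Active at a log2 fold change of 4.30 ± 0.50 (adjusted p = 0.0012), 25.5-fold lower in Active than in Quiescent at -4.68 ± 0.51 (adjusted p = 8.1e-05), and overlapped between UVB and Quiescent. Col6a5 had 0.787 to 3.15 CPM in UVB, 0 to 0.498 CPM in Active and 1.79 to 4.26 CPM in Quiescent, and fell in Active against Quiescent at -3.28 ± 0.90 (adjusted p = 0.012). In UVB against Active it was at 2.79 ± 0.89 (adjusted p = 0.051), and was called with DESeq2 (adjusted p = 0.0044) or a filter of 50 counts in 3 libraries (adjusted p = 0.0489) and without UVB 2. Col6a4 had 1.16 to 2.26 CPM in UVB, 0 to 0.2804 CPM in Active and 0.477 to 0.625 CPM in Quiescent, and rose in UVB against Active at 4.03 ± 0.95 (adjusted p = 0.018), a call lost without UVB 1 or Active 2 (adjusted p up to 0.059). It was not called against Quiescent, but 4 of 10 other settings called it higher in UVB (adjusted p from 0.015). DESeq2 called it lower in Active (adjusted p = 0.019), and leaving out Active 1 gave both calls. Only Active replicate 1 held Col6a4 fragments among the Active libraries, and without it UVB was at least 30.1-fold higher when Active, at 0, is set to 3 fragments for the group. Such limits and intervals cover counting error only.

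Col28a1 encodes a beaded filament collagen known in mice from the surroundings of Schwann cells in peripheral nerve. It had 128, 70.7 and 70.7 CPM in UVB, 97.6, 121 and 42.3 CPM in Active, and 2.19, 2.26 and 2.83 CPM in Quiescent. UVB and Active overlapped and both stood far above Quiescent, 37.1-fold at a log2 fold change of 5.21 ± 0.46 (adjusted p = 5.6e-05) and 35.9-fold at 5.16 ± 0.46 (adjusted p = 2.9e-05). The 9 Schwann cell markers given above were higher summed in UVB and Active than in Quiescent, but the single markers were divided. In UVB against Quiescent 4 of them rose and 1 fell. In Active against Quiescent 4 rose and 2 fell, and the part of these markers was not tested.

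Col7a1 encodes the collagen of anchoring fibrils, which fasten the epidermal basement membrane to the dermis. It had 169, 129.6 and 178 CPM in UVB, 12.2, 5.33 and 12.9 CPM in Active, and 69.7, 59.3 and 28.04 CPM in Quiescent, with UVB above and Active below all Quiescent libraries. It was 15.7-fold higher in UVB than in Active at a log2 fold change of 3.97 ± 0.43 (adjusted p = 9.2e-04), 3.03-fold higher in UVB than in Quiescent at 1.60 ± 0.39 (adjusted p = 0.0087), and 5.17-fold lower in Active than in Quiescent at -2.37 ± 0.40 (adjusted p = 0.001). Its opposite partner at the basement membrane, Col17a1 of hemidesmosomes, passed no test, at 20.2 to 57.6 CPM in UVB, 41.5 to 67.2 CPM in Active and 6.199 to 67.9 CPM in Quiescent. The keratinocyte markers given above also spread widely in Quiescent, from 65.4 to 1075 FPKM, and their part was not tested.

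Short-chain collagens form hexagonal nets, type VIII in vessel walls and the eye and type X in the growth zones of cartilage. Col8a1 had 40.99, 38.7 and 14.7 CPM in UVB, 45.5, 33.4 and 13.5 CPM in Active, and 9.498, 9.35 and 10.3 CPM in Quiescent. It rose against Quiescent in UVB (log2 fold change 1.69 ± 0.48, adjusted p = 0.017) and in Active (1.67 ± 0.48, adjusted p = 0.015), and UVB and Active overlapped. The UVB call was lost without UVB replicate 1, UVB replicate 2 or Quiescent replicate 1 (adjusted p up to 0.058) and the Active call without Active replicate 1 (0.057). Its partner Col8a2, at 2.88 to 9.11 CPM in UVB, 0.761 to 1.27 CPM in Active and 1.99 to 2.98 CPM in Quiescent, rose in UVB against Active at 2.52 ± 0.44 (adjusted p = 0.0061) and in UVB against Quiescent at 1.20 ± 0.42 (adjusted p = 0.043), and fell in Active against Quiescent at -1.33 ± 0.44 (adjusted p = 0.028). The call against Quiescent in UVB was lost without UVB 1 or 3, Active 1, 2 or 3 or Quiescent 1, 2 or 3 (adjusted p up to 0.15), and UVB and Quiescent overlapped. This call was lost too under limma on log2(FPKM + 1) (adjusted p = 0.0503), limma on log2(FPKM + 0.1) (adjusted p = 0.062), a fit of the 2 groups alone (adjusted p = 0.065) or the replicate block (adjusted p = 0.064). The call in Active against Quiescent was lost under 3 of 10 other settings and without Active 1 or 2 or Quiescent 2 or 3 (adjusted p up to 0.25 and 0.093).

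Col10a1 was the 1 collagen gene lower in UVB than in Active. It had 0.189, 0.171 and 1.11 CPM in UVB, 9.72, 2.83 and 4.005 CPM in Active, and 0.0391, 0.0596 and 0 CPM in Quiescent, so that UVB lay below Active and above Quiescent in every library, with 2 fragments in all of Quiescent. Its log2 fold change in UVB against Active was -3.48 ± 0.81 (adjusted p = 0.017), 11.2-fold lower, which became 29.9-fold without UVB replicate 3 and 6.93-fold without Active replicate 1 (adjusted p = 0.064), and which also missed the threshold without UVB replicate 1 (adjusted p = 0.06). Against Quiescent the ratio of fragments was 14.4 in UVB (exact 95% interval 3.76 to 122.7) and 172 in Active (47.4 to 1424), from 44, 488 and 2 fragments in UVB, Active and Quiescent, and the Active ratio was 100.3 without Active replicate 1. In edgeR the calls against Quiescent had adjusted p = 0.032 and 6.5e-04, and the UVB call was lost without UVB replicate 3 or any of the Quiescent libraries (adjusted p up to 0.095). It was lost too under limma on log2(FPKM + 1) (adjusted p = 0.57), limma on log2(FPKM + 0.1) (adjusted p = 0.13) or the replicate block (adjusted p = 0.0509), at a log2 fold change of 0.19 on the log2(FPKM + 1) scale. Without UVB replicate 3 the UVB ratio was 5.35 (1.17 to 49.7).

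FACIT collagens fell into a group that rose against Quiescent and a group that fell. In UVB against Active none of the 7 tested passed the test, while 24.0% of all genes did. Against Quiescent, 4 rose and 2 fell in UVB (25.8% and 23.2% of all genes) and likewise in Active (29.1% and 29.2%). Col20a1, a FACIT collagen first described in chick, had the largest fitted rise of the family in both comparisons with Quiescent. It had 426, 185 and 235 CPM in UVB, 199.6, 369.8 and 847 CPM in Active, and 3.87, 3.28 and 1.53 CPM in Quiescent. It was 96.2-fold higher in UVB than in Quiescent at a log2 fold change of 6.59 ± 0.69 (adjusted p = 1.2e-04), and 161-fold higher in Active at 7.33 ± 0.71 (adjusted p = 4.4e-05), or 98.2-fold without Active replicate 3. UVB and Active overlapped. Its window, shown for that reason, lies at chr2:180986285-180986584 on the plus strand in GRCm38.p6 and holds none of the 3 boxes, so it has no capitals.
Col20a1: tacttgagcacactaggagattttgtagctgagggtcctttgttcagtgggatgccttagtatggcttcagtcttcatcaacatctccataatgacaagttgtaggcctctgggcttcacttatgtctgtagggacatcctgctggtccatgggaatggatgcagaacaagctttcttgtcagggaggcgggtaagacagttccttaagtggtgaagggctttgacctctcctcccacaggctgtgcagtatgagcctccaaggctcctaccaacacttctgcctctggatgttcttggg
The RefSeq start used for this window lies inside the gene as positioned here, chr2:180983323-181017545.

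Col12a1, whose protein coats type I fibrils under tension, had 689, 949 and 555 CPM in UVB, 498, 571 and 708 CPM in Active, and 90.9, 66.4 and 97.1 CPM in Quiescent. It rose 8.62-fold in UVB and 6.98-fold in Active against Quiescent, at log2 fold changes of 3.11 ± 0.25 (adjusted p = 4.0e-05) and 2.80 ± 0.25 (adjusted p = 2.8e-05). Col14a1, a close relative that binds the same fibrils, went the other way, with 98.2, 85.8 and 152 CPM in UVB, 55.6, 81.2 and 45.03 CPM in Active, and 389, 314 and 531 CPM in Quiescent. Its log2 fold changes against Quiescent were -1.88 ± 0.30 (adjusted p = 0.0012) in UVB and -2.76 ± 0.31 (adjusted p = 1.0e-04) in Active. All UVB libraries exceeded all Active ones by a narrow margin, at 0.89 ± 0.30 (adjusted p = 0.06), which missed the threshold but was called by DESeq2 (adjusted p = 0.023) and without Quiescent replicate 3 (adjusted p = 0.048).

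Col16a1, a FACIT collagen of the dermis near the basement membrane, had 941, 714 and 572 CPM in UVB, 571, 509 and 708 CPM in Active, and 1245, 1332 and 1044 CPM in Quiescent. For Active against Quiescent it was 2.02-fold lower at a log2 fold change of -1.02 ± 0.21 (adjusted p = 0.0029), and the call was lost with the library size alone (-0.28, adjusted p = 0.26). Relative to Quiescent, in UVB it was at -0.70 ± 0.21 (adjusted p = 0.022), which turned to 0.012 (adjusted p = 0.96) with the library size alone and was lost with library sizes without collagen genes (-0.35, adjusted p = 0.18) and without UVB 2 or 3 or Quiescent 1 or 2 (adjusted p up to 0.062). Type IX, which decorates cartilage fibrils, was low, but Col9a3 reached 22.8, 17.4 and 16.2 CPM in UVB, 21, 33.4 and 38.5 CPM in Active, and 3.05, 1.61 and 2.42 CPM in Quiescent. Col9a3 rose 7.87-fold in UVB and 12.96-fold in Active against Quiescent (log2 fold changes 2.98 ± 0.31, adjusted p = 1.1e-04, and 3.70 ± 0.32, adjusted p = 2.3e-05). Its exons share 234 bases (6.07%) with Tcfl5 on the other strand. Col9a1, at 1.28 to 2.11 CPM in UVB, 1.62 to 1.92 CPM in Active and 0 to 0.352 CPM in Quiescent, rose in both as well (adjusted p = 0.0088 and 0.0068). All 9 of its Quiescent fragments lay in replicate 1, without which UVB was at least 19.4-fold and Active at least 19.2-fold higher. Col9a2 passed no test, at 0.2397 to 1.72 CPM in UVB, 0.29 to 1.39 CPM in Active and 0 to 0.391 CPM in Quiescent, and was called higher in UVB against Quiescent with the library size alone (adjusted p = 0.039).

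Transmembrane collagens stay anchored in the membrane of the cell. Col23a1 had 19.3, 10.5 and 34.4 CPM in UVB, 5.89, 4.89 and 4.74 CPM in Active, and 85.2, 126 and 59.2 CPM in Quiescent. It was 17.4-fold lower in Active and 4.22-fold lower in UVB than in Quiescent, at log2 fold changes of -4.12 ± 0.46 (adjusted p = 9.2e-05) and -2.08 ± 0.42 (adjusted p = 0.0035), with no overlap between any 2 groups. UVB exceeded Active at 2.05 ± 0.43 (adjusted p = 0.012), a call lost without Active replicate 2 (adjusted p = 0.053). Col13a1, a collagen of cell contacts such as the nerve-muscle junction, had 3.29 to 12.6 CPM in UVB, 1.41 to 3.06 CPM in Active and 3.84 to 9.03 CPM in Quiescent. It was at 2.18 ± 0.57 (adjusted p = 0.026) in UVB against Active and -1.78 ± 0.56 (adjusted p = 0.023) in Active against Quiescent, and these calls were lost without UVB 1 or 3 or Active 1 or 2 in the first case and Active 1 or 2 or Quiescent 1 or 2 in the second (adjusted p up to 0.098 and 0.081). The second was also lost with the library size alone (-1.06, adjusted p = 0.12). Col25a1, known from nerve cells, had 0.479 to 1.52 CPM in UVB, 0.943 to 2.27 CPM in Active and 0 to 0.274 CPM in Quiescent and rose against Quiescent in UVB (2.89 ± 0.86, adjusted p = 0.022) and Active (3.80 ± 0.86, adjusted p = 0.0047). The UVB call was lost without UVB replicate 3 or Quiescent replicate 3 (adjusted p up to 0.061) and under limma on log2(FPKM + 1) (adjusted p = 0.14). Without Quiescent replicate 1 a single Quiescent fragment was left, and the ratios were 32.4 in UVB (exact 95% interval 5.66 to 1294) and 61.3 in Active (10.8 to 2437).

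The multiplexins of basement membrane zones differed between themselves. Col18a1, whose cut end is endostatin, had 1794, 1720.0 and 1182 CPM in UVB, 1011, 1299.9 and 1855 CPM in Active, and 379.6, 323 and 315 CPM in Quiescent. Both UVB and Active stood above Quiescent without overlap, 4.62-fold at 2.21 ± 0.25 (adjusted p = 2.0e-04) and 4.09-fold at 2.03 ± 0.25 (adjusted p = 1.7e-04) on the log2 scale, and they overlapped with each other. Col15a1, at 1007 to 1625 CPM in UVB, 769.9 to 946 CPM in Active and 1019 to 1316 CPM in Quiescent, passed no test (adjusted p = 0.055 in UVB against Active, and 0.028 to 0.09 over 10 other settings, of which 4 called it higher, as did the fits without UVB replicate 3 or Quiescent replicate 3). In UVB against Quiescent it was called higher with the library size alone (adjusted p = 0.0015) or library sizes without collagen genes (adjusted p = 0.025). Col26a1 had 3.53, 1.37 and 17.4 CPM in UVB, 0.187, 0.0363 and 0.736 CPM in Active, and 0.899, 0.834 and 0.649 CPM in Quiescent. It rose in UVB against Active at 4.56 ± 1.12 (adjusted p = 0.021) and against Quiescent at 3.21 ± 1.04 (adjusted p = 0.031), and much of this lay in UVB replicate 3, without which the folds of 23.6 and 9.26 became 7.75 and 3.07 (adjusted p = 0.054 and 0.15). Without Active replicate 3 the first was 59.4. The call against Active was also lost without Active replicate 1 or 2 (adjusted p up to 0.08), and the call against Quiescent without any 1 of the Quiescent libraries. The call against Active was lost as well under limma on log2(FPKM + 1) (adjusted p = 0.061), and that against Quiescent under limma on log2(FPKM + 1) (adjusted p = 0.063) or the replicate block (adjusted p = 0.0505).

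Across the family, 36 of the 42 tested genes passed the test in at least 1 comparison. Among all genes, 24.0% passed in UVB against Active, 49.0% in UVB against Quiescent and 58.3% in Active against Quiescent. The share of all genes that passed in at least 1 comparison, or that showed each pattern below, was not counted. The most frequent pattern, in 10 genes, was higher in both UVB and Active than in Quiescent with no call between UVB and Active (Col4a1, Col4a2, Col8a1, Col9a1, Col9a3, Col12a1, Col18a1, Col20a1, Col25a1 and Col28a1). Of 10 melanocyte markers, 8 rose in UVB and 10 in Active against Quiescent. Unlike these collagen genes, 9 of the markers fell in UVB against Active, and their part was not tested. In 6 genes (Col1a1, Col1a2, Col3a1, Col5a1, Col5a2 and Col23a1) UVB was called higher than Active and both lower than Quiescent, and in 6 others (Col4a3, Col4a4, Col4a5, Col4a6, Col14a1 and Col16a1) both were lower than Quiescent with no call between them. In Col6a1, Col6a2, Col7a1 and Col8a2 UVB was called higher than both other groups and Active lower than Quiescent. The 6 genes with no call were Col2a1, Col9a2, Col11a2, Col15a1, Col17a1 and Col24a1. Counted by libraries, 23 genes were higher and 1 was lower in every UVB library than in every Active one (25.0% and 21.7% of all genes), 19 and 12 in UVB against Quiescent (30.2% and 27.4%), and 14 and 22 in Active against Quiescent (33.5% and 32.7%). The 2 untested genes had at most 0.410 CPM in any library, with Col19a1 at 6 fragments over UVB, 1 over Active and 8 over Quiescent.

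RefSeq promoter windows of 300 bases were found for 35 of the 44 genes, 38 windows in all. The GC box was in 60.5% of them and in 35.7% of all 32851 windows of that length. The CCAAT box was in 34.2% of collagen windows and 37.4% of all, and the TATA box in 13.2% of collagen windows and 13.6% of all, each on either strand. These are matches of letters and not shown to be sites of binding.

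Under TMM scaling, genes that modify, secrete and process collagen chains mostly fell with types I and III in the comparisons with Quiescent. The fibroblast markers given above fell in the same comparisons, and their part was not tested. Of 19 genes for chain modification and folding in the endoplasmic reticulum, 3 rose and none fell in UVB against Active, and 3 rose and 14 fell in each comparison with Quiescent. The median log2 fold changes were 0.19, -0.79 and -1.16 in the order UVB against Active, UVB against Quiescent and Active against Quiescent. Counts and medians of the pathway lists were not made under other scalings. With the library size alone, the median of all genes moved to 0.74 in UVB and 0.76 in Active against Quiescent. Among all genes tested, 14.8% rose and 9.19% fell in UVB against Active, and 25.8% rose and 23.2% fell in UVB against Quiescent. In Active against Quiescent 29.1% rose and 29.2% fell, and the same shares stand beside the counts of the lists that follow. P4ha2, a catalytic subunit of the prolyl hydroxylase that lets the helix hold at body heat, had 44.8, 42.3 and 37.8 CPM in UVB, 33.3, 36.5 and 39.97 CPM in Active, and 273, 236 and 347 CPM in Quiescent. It fell 6.86-fold in UVB and 7.81-fold in Active against Quiescent (adjusted p = 8.6e-06 and 4.1e-06). Plod2, the lysyl hydroxylase of the chain ends that sets the kind of crosslink, went the other way, with 90.95, 90.6 and 66.1 CPM in UVB, 91.9, 78.3 and 87.6 CPM in Active, and 2.46, 3.396 and 3.66 CPM in Quiescent. It rose 26.2-fold in UVB and 27.3-fold in Active against Quiescent, at log2 fold changes of 4.71 ± 0.20 (adjusted p = 2.1e-06) and 4.77 ± 0.20 (adjusted p = 1.6e-06). P4ha3, a further prolyl hydroxylase subunit, rose in all 3 comparisons, at 1.54 ± 0.40 (adjusted p = 0.025), 3.23 ± 0.44 (adjusted p = 4.4e-04) and 1.70 ± 0.42 (adjusted p = 0.0076), and the first of these was lost without UVB replicate 2, Active replicate 2 or Active replicate 3 (adjusted p up to 0.091). Fkbp14, a folding enzyme of the secretory path, had log2 fold changes against Quiescent of -2.03 ± 0.15 (adjusted p = 2.6e-05) in UVB and -2.47 ± 0.15 (adjusted p = 6.3e-06) in Active. Crtap, P3h3 (listed as Leprel2) and P3h4 (listed as Leprel4) had log2 fold changes of -0.79 ± 0.12, -1.37 ± 0.15 and -1.99 ± 0.19 in UVB against Quiescent. In Active against Quiescent these were -1.16 ± 0.12, -1.90 ± 0.15 and -2.45 ± 0.19 (adjusted p up to 7.2e-04 over both comparisons). With the library size alone, Crtap in UVB against Quiescent was at -0.061 and its call was lost (adjusted p = 0.64).

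Of 12 tested genes for secretion and processing, 7 rose and none fell in UVB against Active, none rose and 8 fell in UVB against Quiescent, and none rose and 10 fell in Active against Quiescent, with medians of 0.64, -1.33 and -2.15. Adamts2, the enzyme that cuts the amino end of type I procollagen, had 166, 107 and 211 CPM in UVB, 34.3, 41.98 and 47.6 CPM in Active, and 3532, 3393 and 3312 CPM in Quiescent. Its log2 fold changes were 1.97 ± 0.24 (adjusted p = 0.0015) in UVB against Active, -4.40 ± 0.27 (adjusted p = 1.0e-05) in UVB against Quiescent and -6.37 ± 0.30 (adjusted p = 2.1e-06) in Active against Quiescent. Creb3l1, a transcription factor that switches on collagen secretion in bone, had 43.03, 37.04 and 50.1 CPM in UVB, 3.71, 4.31 and 5.76 CPM in Active, and 315, 277 and 358 CPM in Quiescent. It was 9.47-fold higher in UVB than in Active and 69.1-fold lower in Active than in Quiescent (adjusted p = 1.2e-04 and 1.2e-06). Sec24d, a coat protein of the vesicles that carry procollagen, moved the same way in a narrow range, at 110.0 to 121 CPM in UVB, 65.3 to 76.7 CPM in Active and 319 to 351 CPM in Quiescent. Pcolce, which speeds the cutting of the carboxyl end, had 165 to 253 CPM in UVB, 56.7 to 79.6 CPM in Active and 861 to 1353 CPM in Quiescent, with log2 fold changes of 1.60 ± 0.23 (adjusted p = 0.0028) in UVB against Active and -3.98 ± 0.25 (adjusted p = 7.3e-06) in Active against Quiescent. Pcolce2, its relative, fell in UVB and Active against Quiescent at -4.33 ± 0.35 (adjusted p = 3.9e-05) and -3.91 ± 0.34 (adjusted p = 2.7e-05). For Adamts2, Creb3l1, Sec24d and Pcolce the order of groups was that of Col1a1, without overlap.

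**Figure D5:**
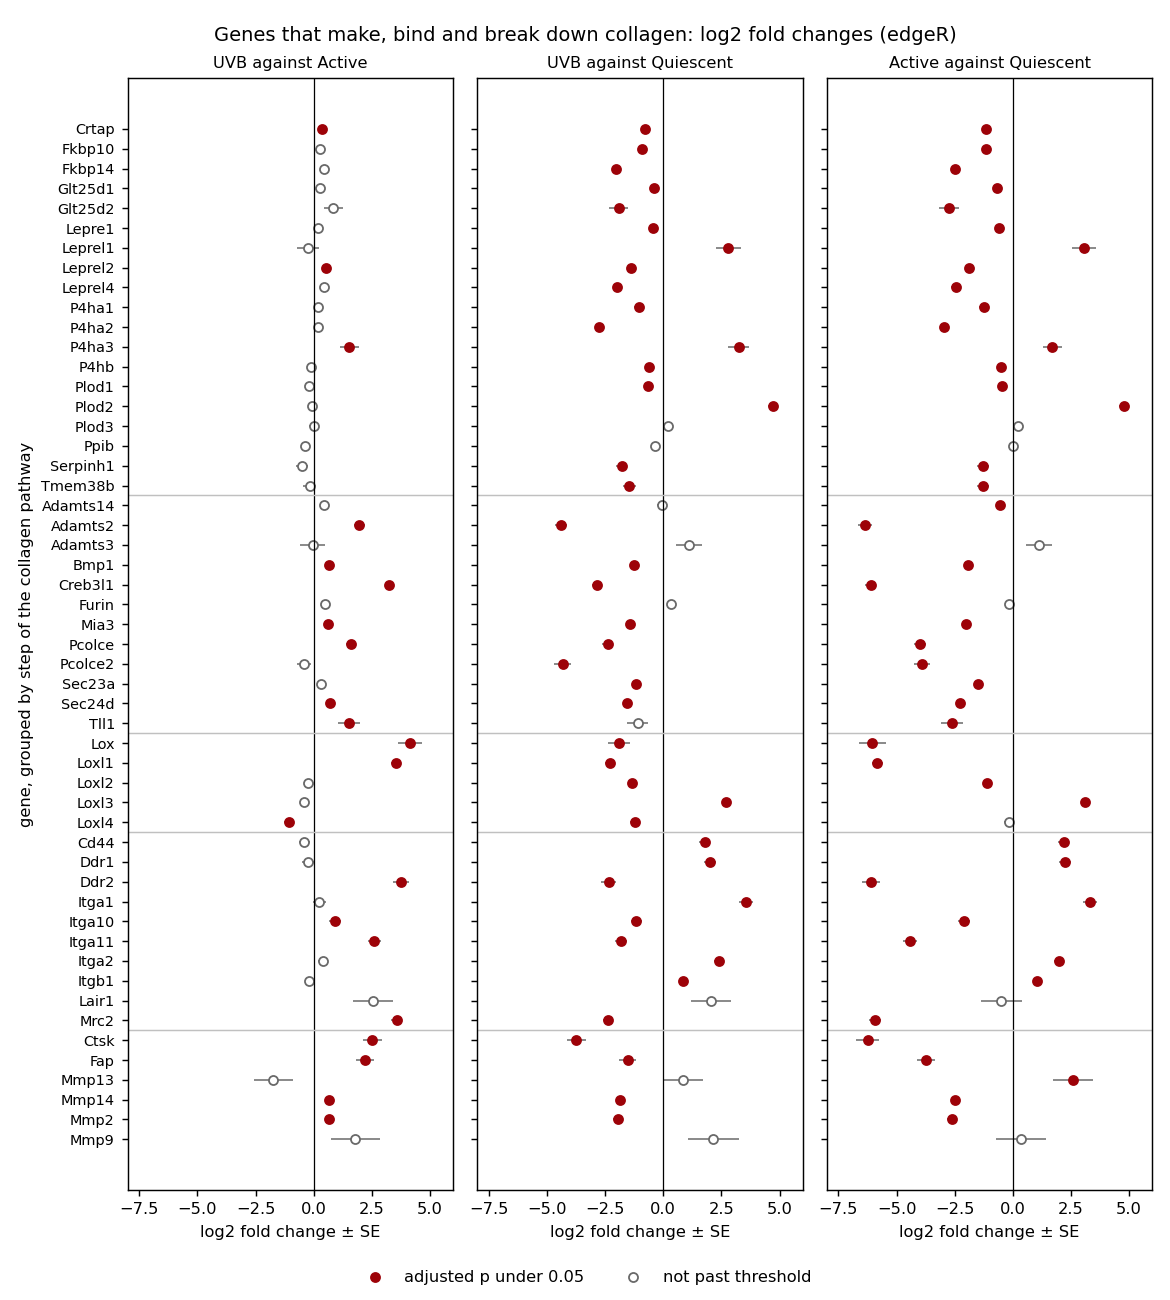
Log2 fold change with its standard error for genes that modify, secrete, crosslink, bind or break down collagen, in blocks from top to bottom by step, in UVB against Active (left), UVB against Quiescent (middle) and Active against Quiescent (right). Filled points passed an adjusted p of 0.05. In the middle and right panels most points of the upper 2 blocks lie left of 0, while Plod2, Loxl3, Ddr1, Itga1 and Itga2 lie right.

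The lysyl oxidase family, which crosslinks fibrils outside the cell, was divided. Of its 5 genes, 2 rose and 1 fell in UVB against Active, 1 rose and 4 fell in UVB against Quiescent, and 1 rose and 3 fell in Active against Quiescent, with medians of -0.23, -1.34 and -1.11. Lox had 135, 65.9 and 302 CPM in UVB, 11.03, 7.21 and 10.3 CPM in Active, and 605, 509 and 766 CPM in Quiescent. It was 17.6-fold higher in UVB than in Active at 4.14 ± 0.53 (adjusted p = 0.0018), or 10.6-fold without UVB replicate 3, and 65.7-fold lower in Active than in Quiescent at -6.04 ± 0.58 (adjusted p = 4.0e-05). For UVB against Quiescent it was 3.73-fold lower at -1.90 ± 0.48 (adjusted p = 0.01), or 6.21-fold lower without UVB replicate 3. Loxl1, which also stands among the fibroblast markers, gave 3.52 ± 0.20 (adjusted p = 9.5e-05), -2.30 ± 0.19 (adjusted p = 4.3e-05) and -5.82 ± 0.23 (adjusted p = 1.4e-06) in UVB against Active, UVB against Quiescent and Active against Quiescent. Loxl3 had 41.9, 39.9 and 34.5 CPM in UVB, 45.6, 51.4 and 56.5 CPM in Active, and 6.37, 6.79 and 4.84 CPM in Quiescent, and rose against Quiescent at 2.69 ± 0.16 (adjusted p = 9.8e-06) in UVB and 3.09 ± 0.16 (adjusted p = 3.6e-06) in Active. Loxl2 fell in both comparisons with Quiescent (-1.34 ± 0.15, adjusted p = 1.9e-04, and -1.11 ± 0.15, adjusted p = 2.9e-04). Loxl4 was lower in UVB than in Active (-1.06 ± 0.21, adjusted p = 0.0099) and than in Quiescent (-1.23 ± 0.21, adjusted p = 0.0016), and its value in Active against Quiescent was -0.17 ± 0.21 (adjusted p = 0.51), or 0.59 with the library size alone (adjusted p = 0.025). The UVB against Quiescent call was lost with the library size alone (-0.49, adjusted p = 0.054).

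Receptors for collagen moved in both directions against Quiescent, also within the receptor kinases and within the integrin chains. Of 10 tested, 4 rose and none fell in UVB against Active, and 5 rose and 4 fell in each comparison with Quiescent, with medians of 0.67, 1.30 and 0.27. Ddr2, a receptor kinase for fibrillar collagen, had 87.5, 69.7 and 175 CPM in UVB, 8.69, 7.504 and 8.5 CPM in Active, and 537, 519 and 642 CPM in Quiescent, and Mrc2, an uptake receptor for collagen fragments, had 90.5, 62.3 and 116 CPM in UVB, 8.32, 6.74 and 7.64 CPM in Active, and 499, 487 and 400.4 CPM in Quiescent. Compared with Quiescent, in Active, Ddr2 was 68.7-fold and Mrc2 61.03-fold lower (adjusted p = 6.3e-06 and 2.0e-06), and in UVB against Active they were 13.4-fold and 11.8-fold higher (adjusted p = 5.6e-04 and 1.4e-04). Itga11, an integrin chain for fibrillar collagen, followed them at 2.60 ± 0.28 (adjusted p = 9.2e-04) in UVB against Active and -4.42 ± 0.30 (adjusted p = 8.9e-06) in Active against Quiescent, and so did its relative Itga10 at 0.93 ± 0.26 (adjusted p = 0.031) and -2.09 ± 0.26 (adjusted p = 1.7e-04), although its call in UVB against Active was lost without UVB 1, 2 or 3 or Active 1, 2 or 3 (adjusted p up to 0.097). The same held under limma on log2(FPKM + 1) (adjusted p = 0.071), a fit of the 2 groups alone (adjusted p = 0.0522) or the replicate block (adjusted p = 0.069). Ddr1, the sister kinase typical of epithelia, had 84.4, 105 and 72.2 CPM in UVB, 98.7, 95.6 and 114 CPM in Active, and 30.96, 17.6 and 15.8 CPM in Quiescent, and Itga1, an integrin chain that binds type IV, had 198, 199 and 184 CPM in UVB, 148, 163 and 179 CPM in Active, and 10.01, 14.8 and 25.1 CPM in Quiescent. Both rose against Quiescent, Ddr1 at 2.02 ± 0.26 (adjusted p = 3.3e-04) in UVB and 2.25 ± 0.26 (adjusted p = 1.1e-04) in Active, and Itga1 at 3.55 ± 0.30 (adjusted p = 4.7e-05) in UVB and 3.30 ± 0.30 (adjusted p = 3.0e-05) in Active. Itga2, a further collagen integrin chain, rose at 2.39 ± 0.23 (adjusted p = 7.9e-05) in UVB and 1.98 ± 0.23 (adjusted p = 1.1e-04) in Active. UVB and Active overlapped for Ddr1 and Itga2, and every UVB library exceeded every Active one for Itga1, which did not pass that test (0.25 ± 0.27, adjusted p = 0.54).

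Of 6 tested genes that break collagen down, 4 rose and none fell in UVB against Active, none rose and 4 fell in UVB against Quiescent, and 1 rose and 4 fell in Active against Quiescent, with medians of 1.24, -1.69 and -2.56. Ctsk, a lysosomal protease that cuts collagen helices, had 450.4, 239.8 and 822 CPM in UVB, 89.6, 73.95 and 101 CPM in Active, and 7809, 6194 and 6086 CPM in Quiescent. It was 5.72-fold higher in UVB than in Active (adjusted p = 0.0041) and 75.96-fold lower in Active than in Quiescent (adjusted p = 1.4e-05). Mmp14, a membrane-bound collagenase, had 566 to 903 CPM in UVB, 414 to 507 CPM in Active and 2428 to 2773 CPM in Quiescent, and Mmp2, a gelatinase that it activates, had 1001 to 1211 CPM in UVB, 543 to 907 CPM in Active and 3818 to 4934 CPM in Quiescent. Relative to Quiescent, in UVB their log2 fold changes were -1.84 ± 0.19 (adjusted p = 1.1e-04) and -1.95 ± 0.22 (adjusted p = 1.7e-04), and in Active against Quiescent -2.49 ± 0.19 (adjusted p = 1.5e-05) and -2.63 ± 0.22 (adjusted p = 2.2e-05). Their smaller rise in UVB against Active (0.65 ± 0.18, adjusted p = 0.034, and 0.68 ± 0.21, adjusted p = 0.047) was lost without UVB 1 or 3 or Active 1, 2 or 3 for Mmp14 and without UVB 1, 2 or 3, Active 1 or 2 or Quiescent 1, 2 or 3 for Mmp2 (adjusted p up to 0.13 and 0.16). The Mmp2 call was lost under no filter (adjusted p = 0.058) or the replicate block (adjusted p = 0.069) too. Mmp13, an interstitial collagenase named here after its value was seen, was the gene that rose in Active against Quiescent, at 2.58 ± 0.86 (adjusted p = 0.029). Mmp13 was low, at 14.4, 4.42 and 3.23 CPM in Active, with Active replicate 1 far above the others and every Quiescent library below them. The Mmp13 call was not checked under other settings or with single libraries left out. Fap, a fibroblast surface protease on the fibroblast marker list as well, gave 2.205 ± 0.38 (adjusted p = 0.0057), -1.53 ± 0.36 (adjusted p = 0.0078) and -3.74 ± 0.40 (adjusted p = 7.6e-05) in UVB against Active, UVB against Quiescent and Active against Quiescent. With the library size alone the UVB against Quiescent call of Fap was lost (-0.81, adjusted p = 0.075).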

How the data were processed

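RNA was sequenced from 9 libraries of cells sorted from mouse skin, 3 in each of the groups UVB, Active and Quiescent, grouped by their labels. Per the submitters' processing notes, cutadapt 1.8, TopHat2 2.0.13, Cuffdiff 2.2.1 and mm10 were used. No source used here gives the annotation, settings or strand option. The authors deposited estimated counts of fragments per gene, whose collagen values were all whole numbers, and FPKM, which divides by transcript length and by a library total. Rounded counts went into edgeR 4.0.16 (R 4.3.3; TMM scaling, filterByExpr, quasi-likelihood test) over all 9 libraries, with Benjamini-Hochberg adjustment over the 15078 of 23361 genes tested, after removal of 8283 low genes. The threshold was an adjusted p of 0.05. Levels in CPM use the TMM-scaled totals. Alternatives used DESeq2 1.42.0, limma 3.58.1 on log2(FPKM + 1) and log2(FPKM + 0.1), other scalings and filters, and each library left out. Differences in shares and ratios used exact two-sided permutation tests (scipy 1.17.1). The code was tested on simulated data.

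The collagen genes, the pathway lists and the marker lists were chosen with earlier results of these data known. Values in every library are given for members past the threshold in at least 1 comparison with a mean of 10 CPM in a group, and from each pathway list up to 4 genes with the smallest adjusted p in each comparison. Older symbols in the table were matched through RefSeq. Promoter windows are from RefSeq (GRCm38.p6), exon overlaps are from GENCODE, and gene positions are given on GRCm38. Library totals of 21045070 to 35131778 fragments set the precision of low genes. Col21a1 was not analysed here.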

Additional observations from a re-analysis of the deposited data

How the results depend on the processing

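Across 10 other settings, 1983 of 2076 gene values kept their side of the threshold, 51 lost the call, 39 gained one and 3 turned. A change of sign counted as a turn only where the value was called in at least 1 of the fits compared. Changes of sign in values called in neither fit were counted as keeping their side. The 3 that turned did so with the library size alone, namely Col16a1 at 0.012 in UVB against Quiescent, Col6a1 at 0.27 and Loxl4 at 0.59, both in Active against Quiescent. With the library size alone, 8746 genes rose and 1247 fell in UVB against Quiescent and 8651 rose and 2208 fell in Active against Quiescent, and with library sizes that leave out the collagen genes 6262 rose and 2011 fell in UVB against Quiescent. These settings move the median of all genes. As a share of summed FPKM, the collagen difference was 1.41 percentage points in UVB against Active, -8.02 in UVB against Quiescent and -9.43 in Active against Quiescent, in place of 3.47, -21.3 and -24.8 points of fragments, since FPKM divides by length.

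With 1 library left out, 1744 of 1890 values of the same genes kept their side, 125 lost the call, 21 gained one and none turned in the sense above. Some uncalled values did change sign, such as the log2 fold change of Col28a1 in UVB against Active, which ranged from -0.32 to 0.36. Collagen genes called higher numbered 10 to 21 in UVB against Active, 13 to 18 in UVB against Quiescent and 12 to 14 in Active against Quiescent, and those called lower 0 to 1, 10 to 12 and 16 to 20. Among all genes the higher calls numbered 999 to 2548, 3214 to 3865 and 3843 to 4452 and the lower calls 453 to 1678, 2687 to 3728 and 3679 to 4486, in the same order. The differences in share ranged from 3.28 to 3.75, from -22.6 to -20.3 and from -26.1 to -23.8 points.

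With a replicate block, 15 collagen genes rose and 1 fell in UVB against Active, 16 rose and 11 fell in UVB against Quiescent, and 13 rose and 20 fell in Active against Quiescent. Among all genes the block gave 1826 and 1004, 3580 and 3229, and 4135 and 4088. Deviations of same-numbered libraries correlated at -0.171 to 0.231. Libraries with different numbers were not compared in this way, so these values do not decide whether same-numbered libraries were handled together. With 3 libraries a group no exact test can go below p = 0.1, and depth limits Col6a4, Col9a1, Col10a1, Col19a1, Col22a1 and Col25a1, which had under 10 fragments in at least 1 group.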
